A study of Mus musculus with 2 samples.

Results

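The 10 genes described here differed in the same direction between SP3_KO and SP3_WT cells in most cell classes of the embryonic dorsal aorta. Vill, Platr5, Mtus2, Cfap44 and Gm36028 were higher in the SP3_KO library, and Zdhhc2, Camk1, Ccdc112, Anxa4 and Snhg18 were lower. These 10 of the 27514 genes in the count matrix were picked because their difference between the libraries was large and pointed the same way in most classes. The difference itself is therefore a description of how they were picked, and no test stands behind it. Differing genes near Sp3 were grouped apart, but otherwise the rule for these 10 names no position in the genome. Nor does it name the sequence before their start sites or the behavior of their relatives. Their normal class pattern in SP3_WT cells was no criterion of its own. The SP3_WT level of a class is part of its difference, however, so pattern and difference are not independent.

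SP3 is a zinc finger transcription factor that binds GC boxes and related GC-rich sequences, as its relative SP1 does, and it can activate or repress transcription depending on the promoter. In the dorsal aorta of the midgestation embryo, a few arterial endothelial cells become hemogenic endothelium (HE) and release blood cells that gather in intra-aortic clusters (IAC). The 10 genes encode an actin-binding protein, microtubule and cilium proteins, a palmitoyltransferase, a kinase, an annexin and noncoding RNAs.

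The libraries were prepared from E10.5 embryos of matings between Sp3+/- parents on a C57Bl6/J x B6129SF1/J background. The SP3_KO library came from Sp3-null embryos and the SP3_WT library from Sp3+/+ embryos of such matings. Dissociated cells were pooled by genotype, sorted as Ter119-, CD41 low or negative cells positive for CD31, CD144 and ESAM, and captured once per genotype with the 10x Genomics 3' kit (version 3). With 1 library per genotype, an unstated number of embryos per pool and a mixed strain background, the Sp3 genotype cannot be told apart from pool, strain haplotype or library.

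There were 3954 SP3_KO and 4451 SP3_WT cells. Unique molecular identifiers (UMIs, 1 for each captured transcript) totalled 71154918 in SP3_KO and 79456081 in SP3_WT cells, and the median cell had 15638.5 in SP3_KO and 14664 in SP3_WT. Of the cell barcodes, 5 occurred in both libraries. Levels are given as CPM, the share of all UMIs scaled to 1e6, after UMIs were summed over the cells of a class, with exact 95% intervals that cover counting error only. The 9 classes are Wnt-high and Wnt-low arterial endothelium (AE), conflux AE, pre-HE, HE, IAC, Wnt-high and Wnt-low venous endothelium (VE) and other endothelium. "Endothelial sum" refers to the 6 classes of AE, VE, conflux AE and pre-HE together, with 2401 SP3_KO and 2639 SP3_WT cells. HE was the smallest class, with 40 SP3_KO and 59 SP3_WT cells. The 5 endothelial markers summed to 1898 CPM in SP3_KO and 1964 CPM in SP3_WT cells of the endothelial sum, against 354 CPM in SP3_KO and 353 CPM in SP3_WT IAC. The 5 hemogenic markers summed to 2.15 CPM in SP3_KO and 2.85 CPM in SP3_WT cells of the endothelial sum, against 633 CPM in SP3_KO and 621 CPM in SP3_WT IAC. In HE the hemogenic markers stood at 442 CPM in SP3_KO and 531 CPM in SP3_WT cells. Arterial markers stood at 486 CPM in SP3_KO and 504 CPM in SP3_WT Wnt-low AE. In Wnt-low VE they were at 106 CPM in SP3_KO and 113 CPM in SP3_WT cells. Venous markers lay closer together, at 1019 CPM in SP3_KO and 968 CPM in SP3_WT Wnt-low AE. In Wnt-low VE they were at 1270 CPM in SP3_KO and 1214 CPM in SP3_WT cells. In the Wnt-high classes, arterial markers stood at 432 CPM in SP3_KO and 470 CPM in SP3_WT AE. In Wnt-high VE they were at 69.1 CPM in SP3_KO and 99.6 CPM in SP3_WT cells. Venous markers there stood at 965 CPM in SP3_KO and 1005 CPM in SP3_WT AE, against 1050 CPM in SP3_KO and 1112 CPM in SP3_WT VE. Markers also differed between the libraries within classes. Arterial markers in HE stood at 466 CPM in SP3_KO and 751 CPM in SP3_WT cells. Erythroid markers stood at 36.0 CPM in SP3_KO and 114 CPM in SP3_WT Wnt-low AE, and at 90.3 CPM in SP3_KO and 52.1 CPM in SP3_WT Wnt-high AE. In HE, neural markers stood at 181 CPM in SP3_KO and 159 CPM in SP3_WT cells and epithelial markers at 61.4 CPM in SP3_KO and 84.4 CPM in SP3_WT cells. In IAC, macrophage markers stood at 211 CPM in SP3_KO and 161 CPM in SP3_WT cells, and Xist at 190 CPM in SP3_KO and 320 CPM in SP3_WT cells. The part of these markers in the values of the classes was not tested. Sp3 transcripts stood at 35.6 CPM in the SP3_KO and 46.3 CPM in the SP3_WT endothelial sum, and were lower in SP3_KO cells in all 9 classes. A 3' tag does not show whether the Sp3 transcript is intact.

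The sequence before the start site was looked at first, since SP3 binds GC boxes. RefSeq promoter sequences of build GRCm38.p6 matched 8 of the 10 genes, and of each the 250 bases before the start site were searched for GGGCGG on either strand (CCGCCC when read on the gene's strand), with overlapping matches counted separately. Of all 32851 such windows, 32.7% held at least 1 GC box. The 8 genes have 10 such windows, and 3 of them held one, near the share over all windows. They belong to 2 genes, Snhg18 and Mtus2. No GC box was found in these windows of Vill, Platr5, Cfap44, Gm36028, Camk1 and Anxa4. Snhg18, which was lower in SP3_KO cells, held 5 boxes, and 1.93% of all windows held 5 or more. They start at positions -128, -96, -90, -85 and -57 from the start site, and those at -90 and -85 overlap by 1 base. Mtus2, which was higher in SP3_KO cells, held 1 box before each of its annotated start sites, at -20 and -41. The promoters of 3 genes are shown, with GC boxes in capitals: that of Snhg18 for its row of boxes, and those of Camk1 and Vill as a gene lower and a gene higher in SP3_KO cells with no box in the window. Only the bases outside annotated genes are printed, which for Snhg18 are the 150 bases that separate it from Sema5a, a gene read in the opposite direction.
Snhg18 (chr15:32244663-32244812, minus strand): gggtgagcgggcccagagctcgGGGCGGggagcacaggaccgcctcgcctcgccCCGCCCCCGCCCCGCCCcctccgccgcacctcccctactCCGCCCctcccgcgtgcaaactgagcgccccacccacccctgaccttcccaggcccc
Camk1 (chr6:113343923-113344172, minus strand): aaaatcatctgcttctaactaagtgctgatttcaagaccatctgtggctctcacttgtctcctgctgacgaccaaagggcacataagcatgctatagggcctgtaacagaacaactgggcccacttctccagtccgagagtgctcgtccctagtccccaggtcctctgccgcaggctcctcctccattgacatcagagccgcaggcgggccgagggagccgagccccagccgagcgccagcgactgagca
Vill (chr9:119052528-119052728, plus strand): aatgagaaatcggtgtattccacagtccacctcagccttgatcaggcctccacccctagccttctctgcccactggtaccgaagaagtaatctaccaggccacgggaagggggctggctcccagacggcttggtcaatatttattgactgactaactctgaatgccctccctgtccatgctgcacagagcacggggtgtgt
A match is a stretch of letters and not a measured binding site, and the absence of one says only that these letters are not in the window.

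All 10 genes were rare transcripts in the endothelial sum, between 0.811 and 13.7 CPM in SP3_KO and between 1.43 and 13 CPM in SP3_WT cells. All 10 lay at least 2-fold apart between the libraries, 5 in each direction. Of the 10146 genes that reached 200 UMIs in this sum, 16 (0.158%) were at least 2-fold higher in SP3_KO cells and 35 (0.345%) at least 2-fold lower, and the median log2 ratio over these genes was -0.02. Of the 5 higher genes, 4 were higher in all 9 classes, which held for 225 of the 10146 genes (2.22%). The 5 lower genes were lower in all 9 classes, as 406 genes (4.00%) were. Since the genes were picked on this contrast, these counts say nothing further about them. In all, 7 genes were both 2-fold higher and higher in every class, and 22 were both 2-fold lower and lower in every class, so the 10 are not the complete set. Just inside the choice stood Gm36028 at a log2 ratio of 1.12 and Snhg18 at -1.25. Just outside stood Zfp652os at 1.10 and Fam177a at -1.24, both of one direction in all 9 classes, and Slc2a3, which encodes a glucose transporter, was left out in spite of a ratio of 1.70 and 9 classes higher. The choice was thus no limit on the ratio alone. Farther from 0 than Snhg18, Pfkm was left out at -1.30 and lower in all 9 classes, and farther from 0 than Gm36028, so were Car4 at 2.09, higher in 7 classes and lower in 1, and Isg15 at 1.74, higher in 8 and lower in 1.

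**Figure D1:**
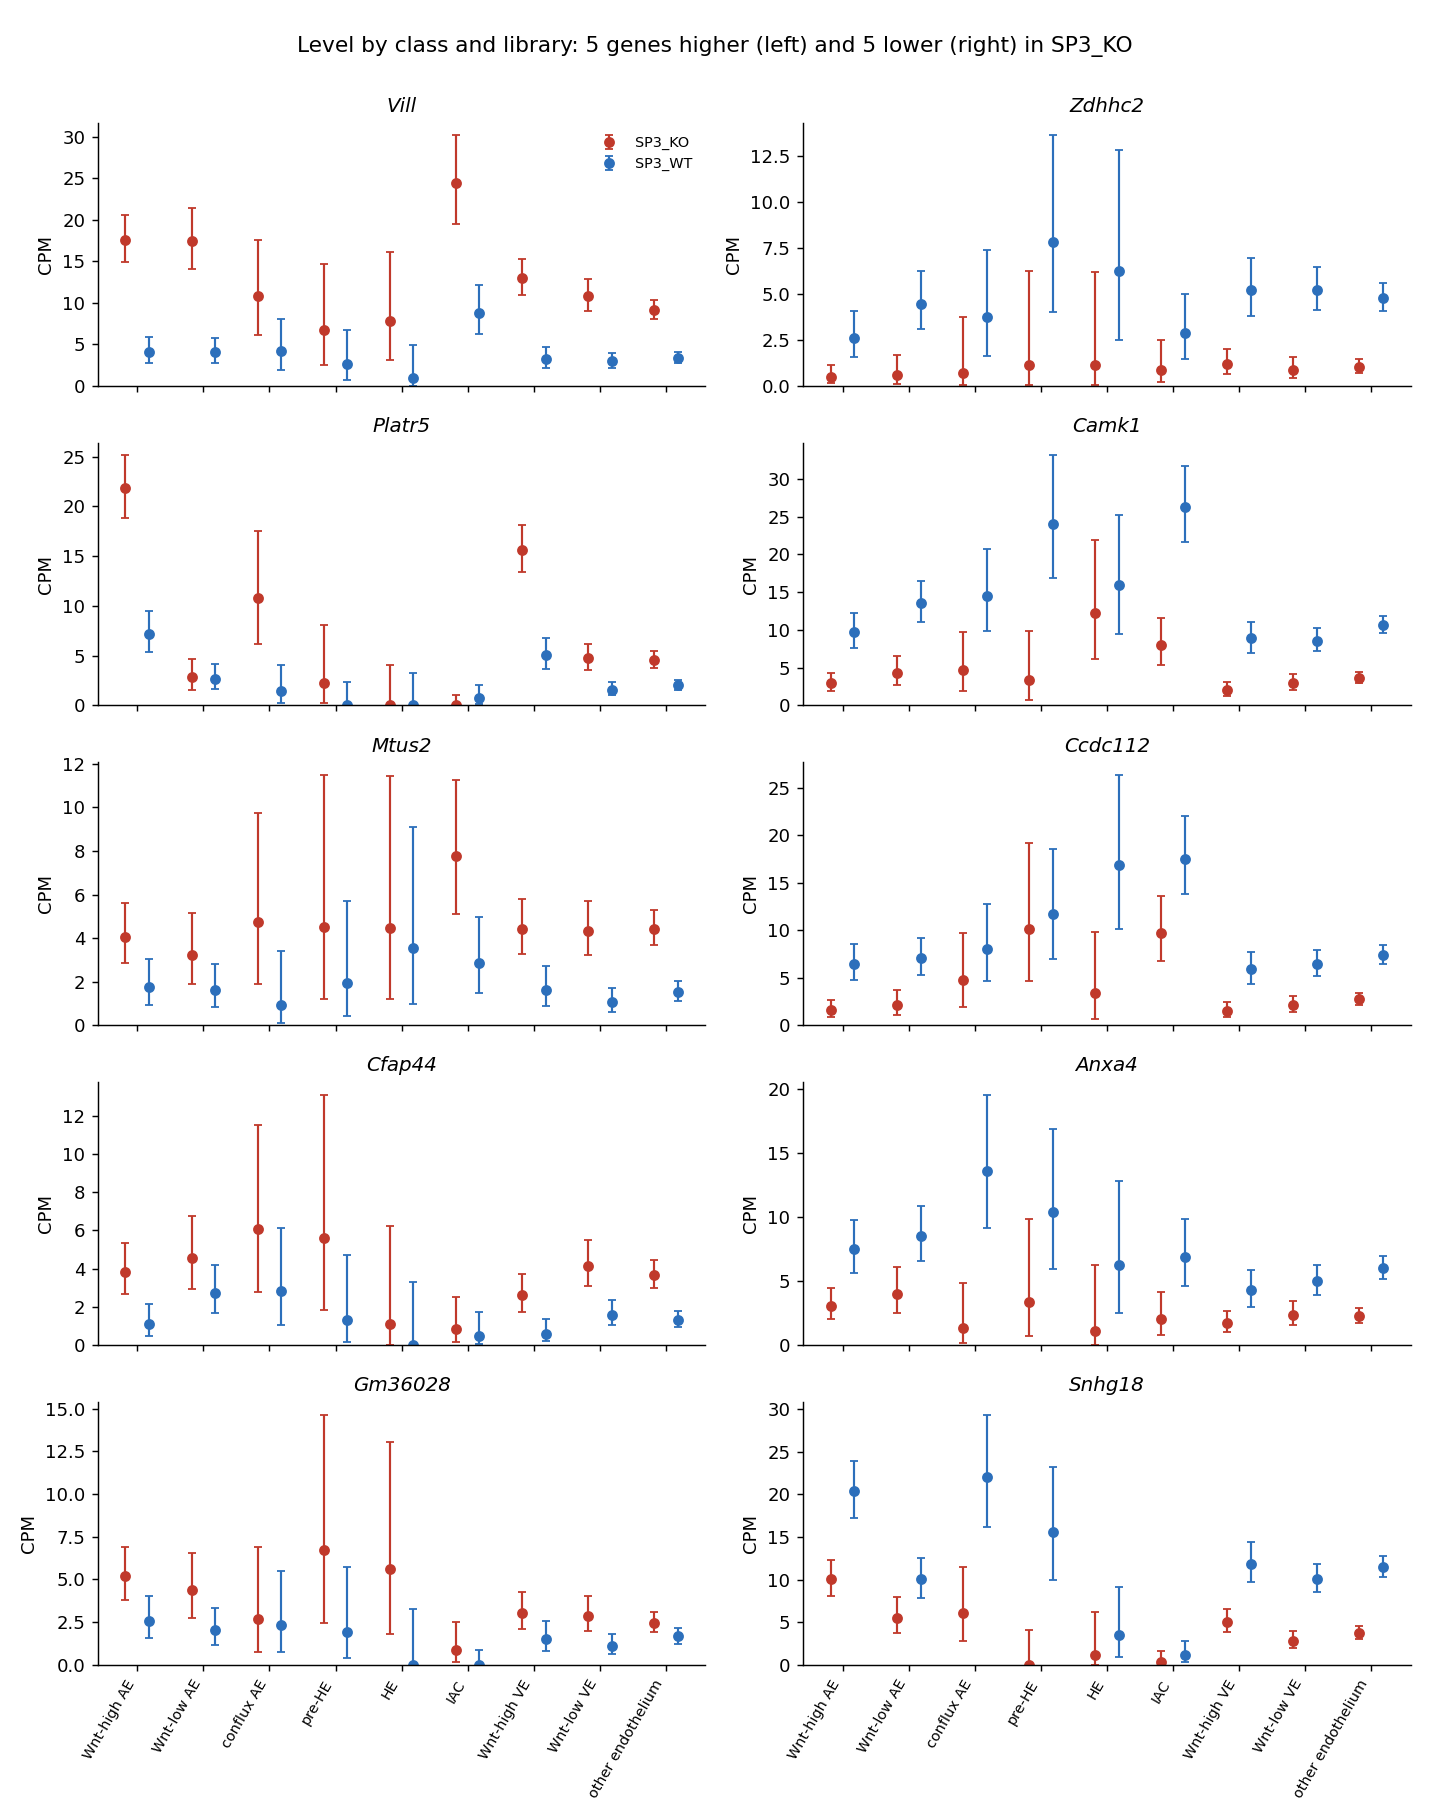
Level of each gene in CPM (vertical axis, linear from 0) in the 9 classes (horizontal axis) of the SP3_KO library (red, left of each pair) and the SP3_WT library (blue, right of each pair), with exact 95% Poisson intervals that cover counting error only. Vill reached 24.4 CPM in SP3_KO IAC against 8.78 CPM in SP3_WT IAC, and Snhg18 was at 0 CPM in SP3_KO pre-HE against 15.6 CPM in SP3_WT pre-HE.

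Vill encodes a villin-like protein of the villin and gelsolin family, which bind actin filaments (ENSMUSG00000038775, chromosome 9, 119052729 to 119071525, plus strand). In the endothelial sum it had 542 UMIs in SP3_KO and 145 in SP3_WT cells, that is 13.7 CPM (12.6 to 14.9) against 3.44 CPM (2.91 to 4.05), so that the log2 ratio was 2.0 (1.73 to 2.27). The arterial classes had the same ratio, with 17.6 CPM in SP3_KO and 4.09 CPM in SP3_WT Wnt-high AE and 17.4 CPM in SP3_KO against 4.06 CPM in SP3_WT cells in Wnt-low AE, both at 2.10. In IAC Vill stood at 24.4 CPM (19.5 to 30.2) in SP3_KO and 8.78 CPM (6.18 to 12.1) in SP3_WT cells, the highest class of each library. In venous classes it was at 13 CPM in SP3_KO against 3.23 CPM in SP3_WT cells (Wnt-high) and 10.8 CPM in SP3_KO against 2.93 CPM in SP3_WT cells (Wnt-low), and in other endothelium at 9.07 CPM in SP3_KO against 3.38 CPM in SP3_WT cells. The classes of the transition itself held few UMIs, 16 in SP3_KO and 9 in SP3_WT conflux AE, 6 in SP3_KO and 4 in SP3_WT pre-HE, and 7 in SP3_KO and 1 in SP3_WT HE. The counting interval of the ratio lay above 0 in 8 classes and spanned it in pre-HE (-0.70 to 3.64).

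Platr5 is a long noncoding RNA named for its association with pluripotency in embryonic stem cells (ENSMUSG00000097398, chromosome 1, 88754890 to 88755733, plus strand). It had 457 UMIs in SP3_KO and 144 in SP3_WT cells of the endothelial sum, 11.6 CPM (10.5 to 12.7) against 3.42 CPM (2.89 to 4.03). The log2 ratio was 1.76 (1.49 to 2.04). Its pattern followed the Wnt split. In SP3_WT cells it was at 7.23 CPM in Wnt-high AE and 5.07 CPM in Wnt-high VE, but at 2.70 CPM in Wnt-low AE and 1.60 CPM in Wnt-low VE. The same split stood at higher levels in SP3_KO cells, with 21.9 CPM in Wnt-high AE, 15.6 CPM in Wnt-high VE, 2.84 CPM in Wnt-low AE and 4.75 CPM in Wnt-low VE. Wnt-high AE gave 574 of the 2401 SP3_KO and 467 of the 2639 SP3_WT cells of the endothelial sum. Wnt-high VE gave 566 in SP3_KO and 508 in SP3_WT. The ratio of the sum lay above that of each Wnt-high and Wnt-low class, the highest being 1.62 in Wnt-high VE. The sum weights classes by their UMIs, so it carries their make-up as well. Wnt-low AE was the arterial or venous class with the ratio closest to 0, with 15 UMIs in SP3_KO and 20 in SP3_WT cells and a ratio of 0.07 (-1.0 to 1.11). Conflux AE had the largest ratio, 2.94 (1.13 to 5.36), from 16 UMIs in SP3_KO and 3 in SP3_WT cells. The Wnt-high markers moved with it there, at 83.6 CPM in SP3_KO and 37.6 CPM in SP3_WT conflux AE, and their part in this ratio was not tested. Few Platr5 UMIs were seen from pre-HE on, with 2 in SP3_KO and 0 in SP3_WT pre-HE and 0 in HE of either library. IAC had 0 in SP3_KO and 3 in SP3_WT cells, and was the only class in which Platr5 was lower in SP3_KO cells. Upper limits were 8.11 CPM in SP3_KO and 2.40 CPM in SP3_WT pre-HE, and 4.12 CPM in SP3_KO and 3.28 CPM in SP3_WT HE. These intervals overlapped those of the Wnt-low classes, so the counts cannot show a lower level in pre-HE or HE. In IAC the upper limit was 1.06 CPM in SP3_KO cells, below the intervals of both Wnt-low classes. In SP3_WT IAC it was 2.08 CPM, inside the interval of Wnt-low VE.

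Mtus2 encodes a microtubule-associated scaffold whose human counterpart tracks growing microtubule ends (ENSMUSG00000029651, chromosome 5, 147957275 to 148316065, plus strand). It had 164 UMIs in SP3_KO and 60 in SP3_WT cells of the endothelial sum, 4.16 CPM (3.55 to 4.84) against 1.43 CPM (1.09 to 1.83), so that the log2 ratio was 1.54 (1.11 to 2.0). Levels of Mtus2 lay between 3.22 CPM (Wnt-low AE) and 4.72 CPM (conflux AE) in SP3_KO endothelial classes, against 0.939 CPM (conflux AE) to 1.95 CPM (pre-HE) in SP3_WT ones. In IAC Mtus2 was at 7.75 CPM (5.11 to 11.3) in SP3_KO and 2.85 CPM (1.47 to 4.97) in SP3_WT cells. HE was the class closest to no difference, with 4 UMIs in each library.

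Cfap44 encodes a cilia and flagella associated protein needed for the axoneme of sperm flagella (ENSMUSG00000071550, chromosome 16, 44394742 to 44482694, plus strand). It had 150 UMIs in SP3_KO and 65 in SP3_WT cells, 3.80 CPM (3.22 to 4.46) against 1.54 CPM (1.19 to 1.97). The log2 ratio was 1.30 (0.87 to 1.74). Wnt-high classes differed most among classes with at least 10 UMIs, with ratios of 1.81 (0.67 to 3.13) in AE and 2.18 (0.79 to 3.90) in VE. Levels there were 3.83 CPM in SP3_KO and 1.09 CPM in SP3_WT Wnt-high AE, and 2.60 CPM in SP3_KO against 0.577 CPM in SP3_WT cells in Wnt-high VE. In Wnt-low AE the ratio was 0.75 (-0.17 to 1.68), from 24 UMIs in SP3_KO and 20 in SP3_WT cells. The blood-forming end of the trajectory held few Cfap44 UMIs. HE had 1 in SP3_KO and 0 in SP3_WT cells, and IAC had 3 in SP3_KO and 2 in SP3_WT cells. The upper limits in HE, 6.22 CPM in SP3_KO and 3.28 CPM in SP3_WT cells, lay above the levels of the endothelial sum. The HE counts therefore cannot show a lower level than in endothelium. In IAC the upper limit was 2.52 CPM in SP3_KO cells, below the interval of the sum. In SP3_WT IAC it was 1.71 CPM, inside that interval.

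Gm36028 is annotated as a protein-coding gene without a known role (ENSMUSG00000108763, chromosome 16, 37850904 to 37865237, minus strand). It lies 6.53 Mb from Cfap44. It had 147 UMIs in SP3_KO and 72 in SP3_WT cells of the endothelial sum, 3.73 CPM (3.15 to 4.38) against 1.71 CPM (1.34 to 2.15), so that the log2 ratio was 1.12 (0.71 to 1.55). Of the classes in the sum, Wnt-high AE held the most UMIs, 46 in SP3_KO and 19 in SP3_WT cells, at 5.18 CPM in SP3_KO against 2.59 CPM in SP3_WT cells. In SP3_WT cells no UMI was seen in HE or IAC, with exact 95% upper limits of 3.28 CPM in HE and 0.875 CPM in IAC, whereas SP3_KO cells held 5 UMIs in HE and 3 in IAC. The lower limit of the log2 ratio was 0.20 in HE and -1.0 in IAC. Of the 10 ratios in the endothelial sum this was the closest to 0, and in other endothelium it was 0.56 (0.02 to 1.11).

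Zdhhc2 encodes a palmitoyltransferase of the DHHC family, which attaches a fatty acid to proteins and so directs them to membranes (ENSMUSG00000039470, chromosome 8, 40423485 to 40489592). It had 32 UMIs in SP3_KO and 195 in SP3_WT cells of the endothelial sum, 0.811 CPM (0.555 to 1.15) against 4.63 CPM (4.01 to 5.33). The log2 ratio of -2.51 (-3.10 to -1.97) was the most negative of the 10 genes. Its level in SP3_KO cells lay between 0.451 CPM in Wnt-high AE and 1.17 CPM in Wnt-high VE, and no class held more than 28 UMIs. SP3_WT classes lay between 2.59 CPM in Wnt-high AE and 7.81 CPM (4.03 to 13.6) in pre-HE, with 5.19 CPM in both Wnt-high and Wnt-low VE. Ratios lay between -2.97 in Wnt-low AE (3 UMIs in SP3_KO and 33 in SP3_WT cells) and -1.73 in IAC (3 in SP3_KO and 12 in SP3_WT cells). The interval spanned 0 only in conflux AE, HE and IAC, where SP3_KO cells held 1, 1 and 3 UMIs.

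Camk1 encodes calcium/calmodulin-dependent protein kinase I (ENSMUSG00000030272, chromosome 6, 113334124 to 113343922, minus strand). It had 117 UMIs in SP3_KO and 445 in SP3_WT cells, 2.97 CPM (2.45 to 3.55) against 10.6 CPM (9.61 to 11.6). The log2 ratio was -1.83 (-2.14 to -1.54). It was at 2.93 CPM in SP3_KO and 9.69 CPM in SP3_WT Wnt-high AE, at 4.36 CPM in SP3_KO against 13.5 CPM in SP3_WT cells in Wnt-low AE and at 4.72 CPM in SP3_KO against 14.6 CPM in SP3_WT cells in conflux AE. The highest SP3_WT levels were in pre-HE, with 3.37 CPM in SP3_KO and 24.1 CPM in SP3_WT cells, and in IAC, with 8.04 CPM in SP3_KO against 26.3 CPM in SP3_WT cells. The class with the lowest ratio was pre-HE, with 3 UMIs in SP3_KO and 37 in SP3_WT cells (-2.84, -5.18 to -1.18). The ratio closest to 0 was that of HE, from 11 UMIs in SP3_KO and 18 in SP3_WT cells, at 12.3 CPM (6.13 to 22) in SP3_KO and 16.0 CPM (9.48 to 25.3) in SP3_WT cells (-0.38, -1.61 to 0.78), and its interval overlapped those of the other 8 classes. Sex transcripts also differed in HE, where Xist stood at 308 CPM in SP3_KO and 692 CPM in SP3_WT cells and Y-linked genes at 117 CPM in SP3_KO against 32.9 CPM in SP3_WT cells, and the ratio within each sex is given with the split by sex. Venous classes had 2.07 CPM in SP3_KO against 8.88 CPM in SP3_WT cells (Wnt-high) and 2.97 CPM in SP3_KO against 8.58 CPM in SP3_WT cells (Wnt-low).

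Ccdc112 encodes a coiled-coil protein found at centriolar satellites in human cells (ENSMUSG00000071855, chromosome 18, 46282151 to 46311950). It had 83 UMIs in SP3_KO and 282 in SP3_WT cells of the endothelial sum, 2.10 CPM (1.68 to 2.61) against 6.70 CPM (5.94 to 7.53), so that the log2 ratio was -1.67 (-2.04 to -1.31). Wnt-high and Wnt-low AE and VE had 1.53 to 2.12 CPM in SP3_KO cells, against 5.88 to 7.03 CPM in SP3_WT cells. Ratios were closer to 0 in conflux AE, pre-HE and IAC. In conflux AE it had 7 UMIs in SP3_KO and 17 in SP3_WT cells, a ratio of -0.76 (-2.27 to 0.59). In pre-HE it was at 10.1 CPM (4.62 to 19.2) in SP3_KO and 11.7 CPM (6.94 to 18.5) in SP3_WT cells, a ratio of -0.21 (-1.55 to 1.02), and in IAC at 9.76 CPM (6.76 to 13.6) against 17.6 CPM (13.8 to 22), a ratio of -0.85 (-1.48 to -0.24). HE had 3 UMIs in SP3_KO and 19 in SP3_WT cells (-2.33, -4.73 to -0.57).

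Anxa4 encodes an annexin, a protein that binds membrane phospholipids in the presence of calcium (ENSMUSG00000029994, chromosome 6, 86736840 to 86793634, minus strand). It had 100 UMIs in SP3_KO and 275 in SP3_WT cells, 2.54 CPM (2.06 to 3.08) against 6.53 CPM (5.78 to 7.35). The log2 ratio was -1.37 (-1.71 to -1.03). Conflux AE was the highest SP3_WT class, and it held the largest difference. The SP3_WT level is part of that difference, so these are not separate observations. There Anxa4 had 2 UMIs in SP3_KO and 29 in SP3_WT cells, 1.35 CPM (0.163 to 4.87) against 13.6 CPM (9.12 to 19.6), a ratio of -3.34 (-6.45 to -1.35). Arterial classes lay at 3.04 CPM in SP3_KO against 7.51 CPM in SP3_WT cells (Wnt-high) and 3.98 CPM in SP3_KO against 8.52 CPM in SP3_WT cells (Wnt-low). IAC had 2.01 CPM in SP3_KO and 6.88 CPM in SP3_WT cells.

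Snhg18 is a long noncoding RNA that hosts a small nucleolar RNA, Snord123 (ENSMUSG00000096956, chromosome 15, 32240568 to 32244662, minus strand). It had 216 UMIs in SP3_KO and 549 in SP3_WT cells, 5.48 CPM (4.77 to 6.26) against 13 CPM (12 to 14.2), so that the log2 ratio was -1.25 (-1.49 to -1.02). In SP3_WT cells it was an endothelial transcript, at 20.3 CPM in Wnt-high AE, 22.1 CPM in conflux AE and 15.6 CPM in pre-HE, and at 3.56 CPM in HE and 1.19 CPM in IAC. SP3_KO cells had 10.0 CPM in Wnt-high AE and 6.07 CPM in conflux AE. In pre-HE no UMI was seen among 92 SP3_KO cells, against 24 UMIs in 21 of 136 SP3_WT cells. The exact 95% upper limit of the SP3_KO level there was 4.14 CPM, and that of the log2 ratio was -1.80. Wnt-low classes differed by -0.86 (-1.54 to -0.23) in AE and -1.85 (-2.44 to -1.30) in VE.

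**Figure D2:**
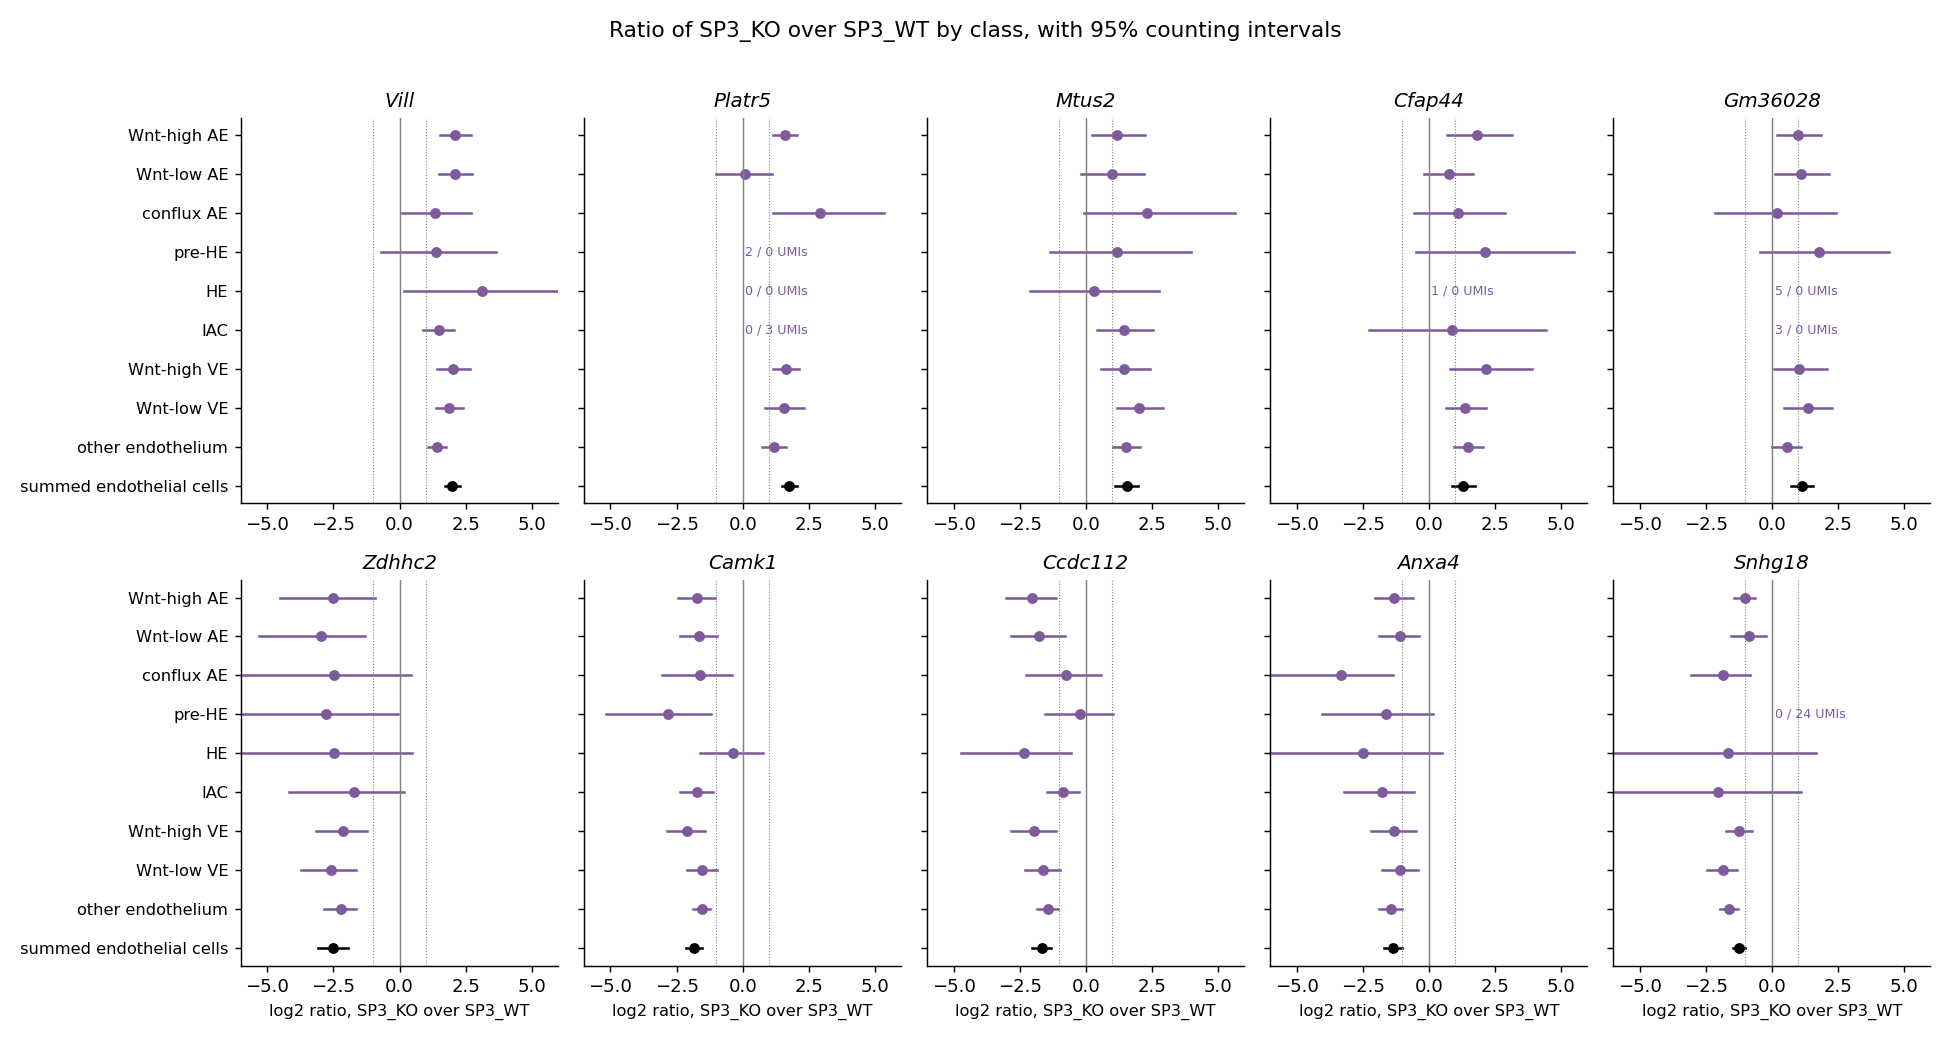
Log2 ratio of CPM, SP3_KO over SP3_WT (horizontal axis), of each gene in the 9 classes and the endothelial sum (vertical axis), with exact 95% counting intervals cut at -6 and 6, dotted lines at 2-fold, and the UMIs of SP3_KO and SP3_WT cells in place of a point where a library held none. All points of the 5 genes in the upper row lie above 0 and all points of the 5 genes in the lower row below 0, except that Platr5 had 0 UMIs in SP3_KO and 3 in SP3_WT IAC.

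Among the classes with at least 10 UMIs of a gene, the direction was the same in every one, in 5 to 8 classes for the higher genes and 7 to 9 for the lower ones. Since the genes were picked for the same direction in most classes, this restates the choice. In the endothelial sum no cell held more than 5 UMIs of any of the 10 genes, and the 3 cells with the most UMIs held between 1.64% and 12.5% of a gene's UMIs in a library. Of the higher genes, Vill was seen in 17.7% of SP3_KO and 4.85% of SP3_WT cells of the endothelial sum. With each cell thinned to 5000 UMIs, which left out 325 SP3_KO and 464 SP3_WT cells, these shares were 6.94% (5.88% to 8.12%) of SP3_KO and 1.61% (1.12% to 2.23%) of SP3_WT cells. Of the lower genes, Camk1 was seen in 4.62% of SP3_KO and 13.9% of SP3_WT cells, and after thinning in 1.69% (1.18% to 2.34%) of SP3_KO and 5.70% (4.76% to 6.76%) of SP3_WT cells. Zdhhc2 was left in 8 of 2076 thinned SP3_KO cells, 0.385% (0.167% to 0.758%), against 56 of 2175 SP3_WT cells, 2.57% (1.95% to 3.33%). Free RNA was gauged with Ptprc (CD45), a blood cell gene seen in 68.2% of SP3_KO and 62.5% of SP3_WT IAC cells, with medians of 30343 UMIs per cell in SP3_KO and 31009 in SP3_WT. In the endothelial sum, with medians of 14111 UMIs in SP3_KO and 12978 in SP3_WT cells, it was seen in 0.0416% of SP3_KO and 0.0379% of SP3_WT cells, below the share of each of the 10 genes in either library. Erythroid markers, by contrast, summed to 53.5 CPM in SP3_KO and 57.2 CPM in SP3_WT cells of the endothelial sum in spite of the Ter119- sort, above the level of any of the 10 genes, and the part of free RNA in the levels was not tested further.

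The class with the highest level in SP3_WT cells varied between the genes. Camk1 and Ccdc112 were highest in IAC, Vill likewise, Platr5 and Gm36028 in Wnt-high AE, Cfap44, Anxa4 and Snhg18 in conflux AE, Zdhhc2 in pre-HE and Mtus2 in HE. For Mtus2 (4 UMIs in HE), Cfap44 (6 UMIs in conflux AE) and Zdhhc2 (12 UMIs in pre-HE) no other class had an interval wholly below that of the highest class, so their highest class is not set apart from any other. The highest class stood between 2.29 times (Gm36028) and 18.6 times (Snhg18) above the lowest class with a UMI. For no gene did neighbors in the order of SP3_WT classes have intervals that stayed apart, so any separation beyond counting error is between classes farther apart in the order. For Snhg18 the interval of IAC (0.385 to 2.77 CPM) lay below that of each AE and VE class. Over the 9 classes, on the scale of log2(CPM + 1), the most similar pair of the 10 was Gm36028 and Snhg18 (Pearson r = 0.94), which differed between the libraries in opposite directions. Camk1 and Ccdc112 had r = 0.84, and the lowest value was that of Cfap44 and Mtus2 (r = -0.83). These correlations describe 9 classes of 1 library, whose cells, depth and low counts are shared.

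Outside the 10, the SP3_WT pattern of Snhg18 was most like those of Mdp1 (r = 0.99) and Trim26 (0.99), and that of Camk1 most like Ptgr2 (0.97) and Lztfl1 (0.97). Ccdc112 was most like Srrm2 (0.99) and Spint2 (0.99), Vill like Hpgds (0.96) and Htatip2 (0.95), and Platr5 like Bag3 (0.98) and Tiam1 (0.96). For Mtus2 the nearest were Hist1h4h and Prpf38b, for Cfap44 Vasp and N4bp1, for Zdhhc2 Med19 and Mrpl24, and for Anxa4 Lrch1 and Elovl1. The SP3_KO over SP3_WT ratios of these named genes lay between -0.61 (Htatip2) and 0.37 (Tiam1), with none past 2-fold.

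The split by sex describes the differences in cells that come from separate embryos of each pool. Cells with Xist UMIs and no UMI of Ddx3y, Eif2s3y, Kdm5d or Uty were taken as female, and cells with UMIs of these Y-linked genes and no Xist UMI as male. A male and a female cell cannot come from the same embryo, so each library holds at least 1 embryo of each sex. The endothelial sum had 1005 SP3_KO and 926 SP3_WT female cells, and 887 SP3_KO and 896 SP3_WT male cells. All 10 genes kept their direction in both sexes. Female and male cells are parts of the cells on whose difference the genes were picked. The kept direction is therefore no separate support for the differences. The counting interval spanned 0 only for Gm36028 in male cells (0.69, -0.04 to 1.44). Vill was at 13.8 CPM in SP3_KO and 4.18 CPM in SP3_WT female cells, and at 13.7 CPM in SP3_KO against 3.32 CPM in SP3_WT male cells. Zdhhc2 was at 0.713 CPM in SP3_KO against 4.44 CPM in SP3_WT female cells and at 0.899 CPM in SP3_KO against 5.34 CPM in SP3_WT male cells. For 8 of the 10 genes the intervals of the ratio in female and in male cells overlapped.

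Camk1 and Snhg18 were exceptions, with a larger difference in male cells and intervals that did not overlap. Camk1 was at 3.98 CPM in SP3_KO and 9.87 CPM in SP3_WT female cells, a log2 ratio of -1.31 (-1.75 to -0.89). In male cells it was at 1.92 CPM in SP3_KO and 11 CPM in SP3_WT cells, a ratio of -2.52 (-3.11 to -1.97). Snhg18 was at 7.07 CPM in SP3_KO against 13.5 CPM in SP3_WT female cells (-0.93, -1.27 to -0.60) and at 3.71 CPM in SP3_KO against 12.4 CPM in SP3_WT male cells (-1.74, -2.17 to -1.32). In SP3_KO cells the log2 ratio of female over male cells was 1.05 (0.43 to 1.71) for Camk1 and 0.93 (0.47 to 1.39) for Snhg18, against -0.15 (-0.47 to 0.16) and 0.12 (-0.17 to 0.40) in SP3_WT cells. Gm36028 and Mtus2 also had intervals above 0 in SP3_KO cells. Gm36028 was at 5.05 CPM in female against 2.58 CPM in male cells (0.97, 0.42 to 1.53), and Mtus2 at 5.23 CPM in female against 3.42 CPM in male cells (0.61, 0.12 to 1.12). Since a pool may hold few embryos of a sex, sex and embryo cannot be told apart here.

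Split by class and sex at once, 18 groups of cells resulted, again parts of the cells on which the genes were picked. Vill was higher in SP3_KO cells in 18 of 18, and Anxa4 and Snhg18 were lower in 18 of 18. Zdhhc2 was lower in 17, with no UMI in either library in female conflux AE, and Ccdc112 was lower in 17 and higher in male pre-HE (6 UMIs in SP3_KO and 4 in SP3_WT cells). Camk1 was lower in 16, and both exceptions were HE. Female HE had 25.9 CPM in SP3_KO and 21.5 CPM in SP3_WT cells, and male HE 6.75 CPM in SP3_KO against 4.22 CPM in SP3_WT cells, from 4 UMIs in SP3_KO and 1 in SP3_WT cells. The female values came from 7 UMIs in 12 SP3_KO cells and 17 UMIs in 40 SP3_WT cells. Over all HE the ratio was -0.38 (-1.61 to 0.78), and with so few UMIs neither sex sets a direction. Mtus2 was higher in 17 groups, Cfap44 in 15, Gm36028 in 14 and Platr5 in 12. Platr5 was lower in 3, namely female Wnt-low AE and both sexes of IAC.

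**Figure D3:**
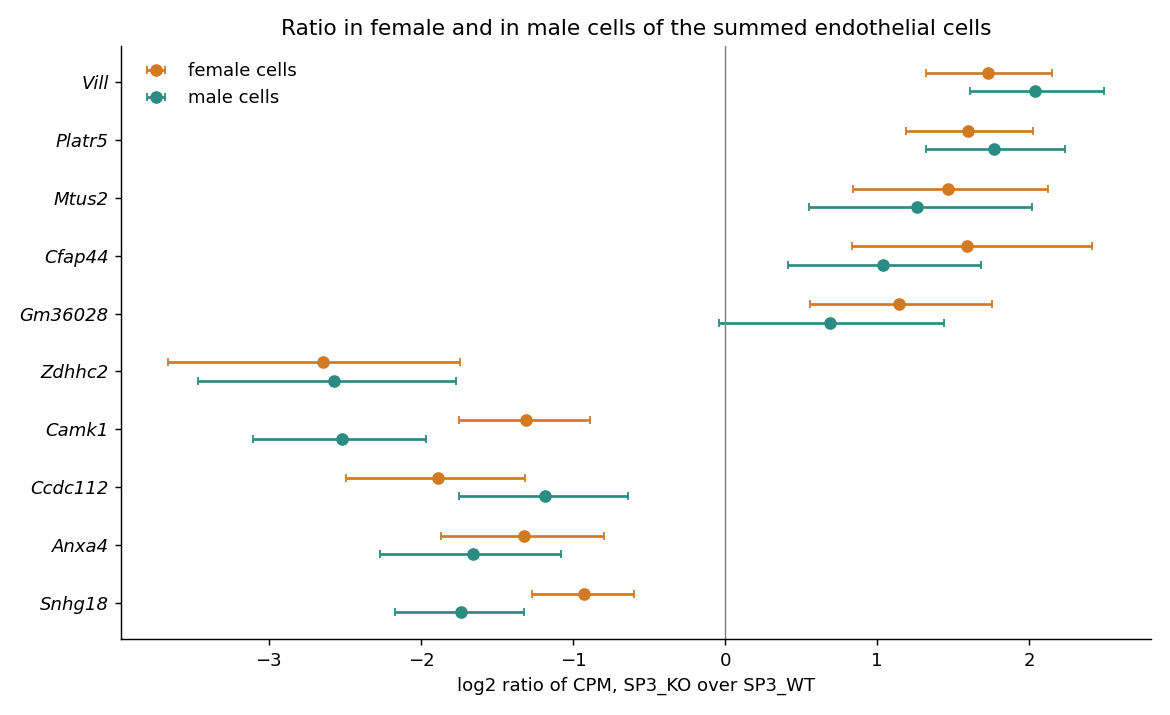
Log2 ratio of CPM, SP3_KO over SP3_WT (horizontal axis), of each gene (vertical axis) in female (orange, upper of each pair) and male (green, lower of each pair) cells of the endothelial sum, with exact 95% counting intervals. The intervals of female and male cells overlap for 8 genes and stay apart for Camk1 (-1.31 and -2.52) and Snhg18 (-0.93 and -1.74).

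Relatives of the 10 genes were looked at next. Of all 11814 genes with at least 50 UMIs in the endothelial sum, 51 were at least 2-fold higher and 132 at least 2-fold lower, with a median log2 ratio of -0.02. Of the DHHC palmitoyltransferases, 18 besides Zdhhc2 reached this minimum, and their median log2 ratio was 0.01, from Zdhhc14 at -0.58 to Zdhhc9 at 0.23. No one of them lay past 2-fold. Of 12 other calmodulin genes, calmodulin-dependent kinases and calcineurin subunits, none lay past 2-fold, and the median was 0.01. Camk4, which encodes a nuclear calmodulin-dependent kinase, came closest. It stood at 4.77 CPM in SP3_KO and 9.38 CPM in SP3_WT cells, a ratio of -0.98 (-1.24 to -0.72), and was lower in all 9 classes. Ppp3cc, a calcineurin catalytic subunit, was the highest, at 0.68 (0.16 to 1.2). Among 7 other annexins the median was -0.23, and Anxa1 alone lay past 2-fold, at 1.04 CPM in SP3_KO and 2.40 CPM in SP3_WT cells (-1.21, -1.77 to -0.67). Anxa2 was the highest of the list by ratio, with 399 CPM in SP3_KO and 343 CPM in SP3_WT cells (0.22).

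Of 4 other villin and gelsolin genes, Gsn (gelsolin, which severs actin filaments) lay past 2-fold opposite to Vill, at 0.710 CPM in SP3_KO and 1.47 CPM in SP3_WT cells (-1.05, -1.75 to -0.39). Svil, with far more UMIs (4325 in SP3_KO and 4403 in SP3_WT cells), was at 0.07. The 12 other microtubule plus-end genes had a median of -0.03 and reached from -0.13 (Clasp2) to 0.08 (Mtus1, the closest relative of Mtus2). The 7 other cilia and flagella associated genes had a median of -0.09 and lay between -0.19 (Cfap97) and 0.15 (Cfap57). Of 13 other centriolar satellite genes the median was 0.02, and Cep131 was lowest at -0.41 (-0.78 to -0.05). The 5 other small nucleolar RNA host genes had a median of 0.22, opposite in sign to Snhg18, with Snhg9 highest at 0.48 (0.20 to 0.76) and Snhg20 lowest at -0.28 (-0.46 to -0.11). Of the Platr transcripts only Platr25 (0.07) and Platr27 (0.70, -0.07 to 1.49) had enough UMIs besides Platr5. Of the SP factors, Sp1 was at 0.00 (-0.11 to 0.11) and Sp4 at 0.14 (-0.10 to 0.39).

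Positions were compared with those of Sp3 and of measured neighbors in GRCm38.p6. None of the 10 genes lies on the chromosome of Sp3. Differing genes near Sp3 were grouped apart from these 10, so this may follow from the choice. Cfap44 and Gm36028 share a chromosome, and Anxa4 and Camk1 share another, on which they lie 26.5 Mb apart. Of each gene, up to 3 measured genes on each side within 500 kb were taken, 45 in all. Their median log2 ratio was -0.02, and 2 of the 45 lay past 1.5-fold, against 259 of all 10146 genes (2.55%).

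Both of these neighbors lie beside Vill, and both pointed the other way. Plcd1, which encodes a phospholipase C, starts 0.002 kb beyond the end of Vill in genome coordinates and is read from the opposite strand, so that their 3' ends face each other. It had 80 UMIs in SP3_KO and 158 in SP3_WT cells, 2.03 CPM against 3.75 CPM. The log2 ratio was -0.89 (-1.29 to -0.49). It was lower in 8 classes. Myd88, an adaptor of innate immune receptors 264 kb from Vill, was at 3.98 CPM in SP3_KO and 8.58 CPM in SP3_WT cells (-1.11, -1.39 to -0.83) and lower in all 9 classes. Oxsr1, which lies between them, was at 0.04, and Ctdspl on the other side of Vill at -0.09. The annotated Vill and Plcd1 nearly touch but do not overlap. Whether reads running past the end of one gene were counted for the other was not examined. The sources do not give the strand setting of the counting.

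The 4 measured neighbors of Ccdc112 pointed its way with smaller ratios. Pggt1b, 1.06 kb away, was at -0.31 (-0.47 to -0.14), Fem1c at -0.33 (-0.46 to -0.21), Tmed7 at -0.25 (-0.33 to -0.17) and Eif1a at -0.31 (-0.37 to -0.24). Each was lower in SP3_KO cells in 7 or 8 classes. Sema5a, the one measured neighbor of Snhg18, starts 0.151 kb from it on the other strand, across the GC boxes shown above. It had 2.03 CPM in SP3_KO and 3.02 CPM in SP3_WT cells, a ratio of -0.57 (-1.0 to -0.16), and was lower in 6 classes and higher in 3. Spice1, 6.25 kb before Cfap44, was at 0.43 (0.21 to 0.64), and Arl4c near Platr5 at -0.43 (-0.55 to -0.31). Ogg1, a DNA repair gene that overlaps Camk1 on the opposite strand, was at -0.01, with 116 UMIs in SP3_KO and 125 in SP3_WT cells. Tada3, 22.7 kb from Camk1, was at 0.36 (0.20 to 0.52), opposite to Camk1, and higher in SP3_KO cells in 8 classes. Neighbors of Mtus2, Gm36028, Zdhhc2 and Anxa4 lay between -0.21 and 0.25.

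**Figure D4:**
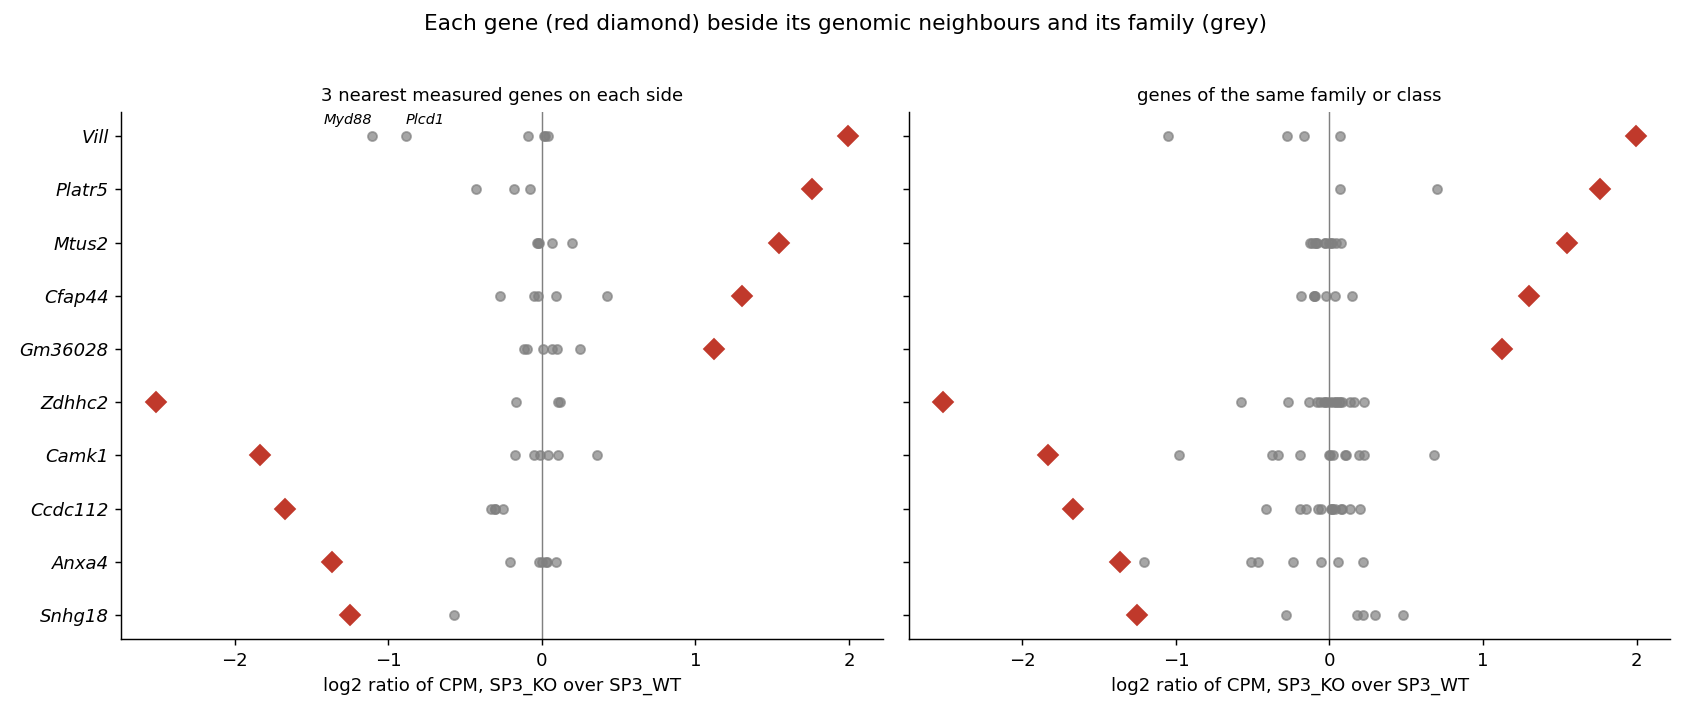
Log2 ratio of CPM in the endothelial sum, SP3_KO over SP3_WT (horizontal axis), of each of the 10 genes (red diamonds, vertical axis) beside its nearest measured neighbors (grey, left panel) and the measured genes of its family (grey, right panel). Neighbors lie between -0.57 (Sema5a) and 0.43 (Spice1) except Plcd1 (-0.89) and Myd88 (-1.11) beside Vill, and of the families Anxa1 (-1.21) and Gsn (-1.05) lie past 2-fold.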

How the data were processed

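Single-cell RNA-seq libraries of 1 SP3_KO and 1 SP3_WT pool were used. The authors aligned reads to mm10 (GRCm38) with Cell Ranger, whose version is not given in the sources used here. Barcodes below 1000 UMIs and 1000 genes and contaminating types were dropped. Classes were voted by the 3 nearest cells of a reference map, and AE was told from VE by the relative expression of arterial and venous genes. The deposited matrix holds unnormalized UMI counts, genes by cells, and the deposited cell table holds the class, the library and the fraction of mitochondrial UMIs of each cell.

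UMIs were summed per class and library and divided by the summed matrix totals. Intervals are exact and at 95% (Poisson for CPM, conditional for ratios, Clopper-Pearson for shares) and cover counting error only. Each genotype has 1 library, so nothing was tested and replicate spread is unknown. Cells and classes are not replicates. No doublet caller was run, and doublets were addressed by leaving out cells with many UMIs or with transcripts of both sexes. The 1 cell of another class was left out.

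The 10 genes, the lists of relatives and the other choices were made with earlier results of these data known. Named were the 10 genes, for each the 2 genes most like it in SP3_WT cells (those of Gm36028 are not reported here), the highest and lowest of each list (others of a list after their values were seen), neighbors past 1.5-fold (others likewise), and genes next to the 10 by ratio (others likewise). Of 10146 genes with 200 UMIs, 9853 had a position in the RefSeq table of GRCm38.p6. The ratios and the intervals of ratios and counts were tested first on simulated counts of the endothelial sum. These held counting error only, with no spread between embryos or libraries, and the other steps were not simulated. Alternatives were edgeR 4.0.16 TMM and DESeq2 1.42.0 size factors, other cell sets, weights, filters, thinning to 5000 UMIs, UMI minimums and, for likeness, a pseudocount of 5. Software was Python 3.11.15, numpy 2.4.6, scipy 1.17.1, pandas 2.3.3, matplotlib 3.10.9 and R 4.3.3.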

Additional observations from a re-analysis of the deposited data

How the results depend on the processing

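Ratios of the 10 genes were recomputed under up to 17 alternatives each, 168 values in all. None changed direction, and 151 stayed inside the counting interval of the main value. The genes were picked on this contrast, and the alternatives reuse cells of the same libraries. A kept direction is therefore no separate support for the differences. Camk1 lay between -2.52 (male cells) and -1.31 (female cells), Snhg18 between -1.88 (HE and IAC, 2 and 9 UMIs) and -0.86 (arterial endothelium), Ccdc112 at -1.04 in HE and IAC, Mtus2 at 2.0 after thinning and Gm36028 at 0.69 in male cells. HE and IAC were chosen as an alternative after seeing the data. TMM and DESeq2 factors moved no gene out of its interval. The count of genes at least 2-fold higher was 16 and the count at least 2-fold lower 35. With a minimum of 50 UMIs they were 51 and 132, and with 500 UMIs 6 and 16. They were 9 and 17 in arterial endothelium, 8 and 16 in venous endothelium, 2 and 5 after thinning and 6 and 6 in HE and IAC, sets of cells in which fewer genes reach 200 UMIs. In male cells 9 were higher and 40 lower, whereas in female cells 17 were higher and 14 lower. The balance of higher to lower thus turned round. The number of genes that reached 200 UMIs in each sex is not given here. A pool may also hold few embryos of a sex, so sex and embryo cannot be told apart. Of the 20 genes most like one of the 10, 12 stayed so with a pseudocount of 5. Gm36028 was higher in 5 of 5 classes with at least 10 UMIs. No paired analysis was possible because each genotype has 1 library. Few UMIs limit the ratios of HE, pre-HE and conflux AE, and 1 library per genotype limits them all.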
